A study of Homo sapiens with 5 samples.

Results

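The CCN family comprises 6 genes, CCN1 (CYR61), CCN2 (CTGF), CCN3 (NOV), CCN4 (WISP1), CCN5 (WISP2) and CCN6 (WISP3), that encode secreted matricellular proteins. These 6 were taken as listed genes among 20007 protein-coding gene symbols of GENCODE release 44, and each was given the TEAD4 peaks whose summit lay in the gene body or within 50 kb of any of its transcription start sites (TSSs). By this rule 28 of the 21113 peaks of the list belonged to the family. The data are TEAD4 chromatin immunoprecipitation followed by sequencing (ChIP-seq) in LX-2, an established human hepatic stellate cell line used as a model of liver myofibroblasts. All cells had received only the solvent DMSO, with 3 immunoprecipitated biological replicates and 2 input samples. The authors made 1 peak list from replicates 1 and 3 and left out replicate 2. The paper states that only replicates 1 and 3 were concordant enough in its reproducibility step. No value per sample, spread between replicates or depth was thus at hand, and every value below belongs to that combined list. Stellate cell markers could not be checked, since the list holds binding and no expression.

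CCN proteins sit in the extracellular matrix and bind integrins, syndecans and growth factors, through which they modify adhesion, growth factor signalling and matrix deposition. TEAD proteins bind DNA at a short element and are switched on by the coactivators YAP1 and TAZ. CCN1 and CCN2 are textbook target genes of YAP/TEAD and are widely used as readouts of it, and CCN2 is a long studied profibrotic factor of stellate cells.

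The sequences that carry the CCN2 and CCN1 results are shown first, on the strand of the gene, 5′ to 3′, from hg38. Capitals mark the TEAD core CATTCC in either orientation (GGAATG on the printed strand is the same element), the AP-1 motif TGACTCA or TGAGTCA in either orientation, and TATAAAA in the upstream stretches. The first 2 are the bases just before the 5′ ends of CCN2 (chr6:131951373-131951622, minus strand) and CCN1 (chr1:85580611-85580760, plus strand), where each gene held the summit nearest to its start. The others are stretches around further summits, CCN2 peak 2 (chr6:131954830-131954910, minus strand), CCN2 peak 5 (chr6:131938089-131938169, minus strand), CCN1 peak 1 (chr1:85571302-85571392, plus strand) and CCN1 peak 5 (chr1:85607395-85607525, plus strand), chosen for the arrangement of their motifs or, for the last, for its strength.
CCN2 upstream: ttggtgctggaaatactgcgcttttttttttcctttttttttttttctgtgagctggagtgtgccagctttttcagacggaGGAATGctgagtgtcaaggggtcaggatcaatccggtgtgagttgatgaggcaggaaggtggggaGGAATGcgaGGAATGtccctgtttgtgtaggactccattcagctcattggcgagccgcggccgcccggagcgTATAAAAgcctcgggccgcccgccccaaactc
CCN1 upstream: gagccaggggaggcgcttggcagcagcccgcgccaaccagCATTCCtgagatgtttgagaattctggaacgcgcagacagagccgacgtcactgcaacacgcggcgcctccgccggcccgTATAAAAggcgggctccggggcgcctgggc
CCN2 peak 2: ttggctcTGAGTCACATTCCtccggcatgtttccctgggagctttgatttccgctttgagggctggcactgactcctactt
CCN2 peak 5: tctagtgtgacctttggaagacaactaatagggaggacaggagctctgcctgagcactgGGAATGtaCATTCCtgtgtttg
CCN1 peak 1: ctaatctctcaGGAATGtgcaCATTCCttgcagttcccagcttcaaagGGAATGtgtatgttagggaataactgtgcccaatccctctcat
CCN1 peak 5: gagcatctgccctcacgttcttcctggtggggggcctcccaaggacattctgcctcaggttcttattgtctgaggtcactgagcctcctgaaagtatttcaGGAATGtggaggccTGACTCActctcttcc

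Peaks were counted first. All 6 CCN genes held at least 1 peak, against a background of 56.2% of protein-coding genes (11245 of 20007). Among the 8981 genes whose windows were no longer than the longest CCN window of 108.8 kb, the background was 47.4% (4256 genes). The 28 peaks were unevenly spread, with 10 at CCN1, 9 at CCN5, 5 at CCN2, 2 at CCN6 and 1 each at CCN3 and CCN4, so that CCN1, CCN2 and CCN5 held 24 of them. The median protein-coding gene held 1 peak and the mean was 1.44. Of all protein-coding genes, 1.16% (233) held as many peaks as CCN1, 1.51% (303) as many as CCN5 and 7.2% (1440) as many as CCN2. Per 100 kb of window, CCN1 held 9.93 peaks, CCN5 8.27 and CCN2 5.0, against a median of 0.667 over all protein-coding genes. Peaks with overlapping intervals were counted separately for all genes, and merging them left 23 of the family's 28.

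**Figure D1:**
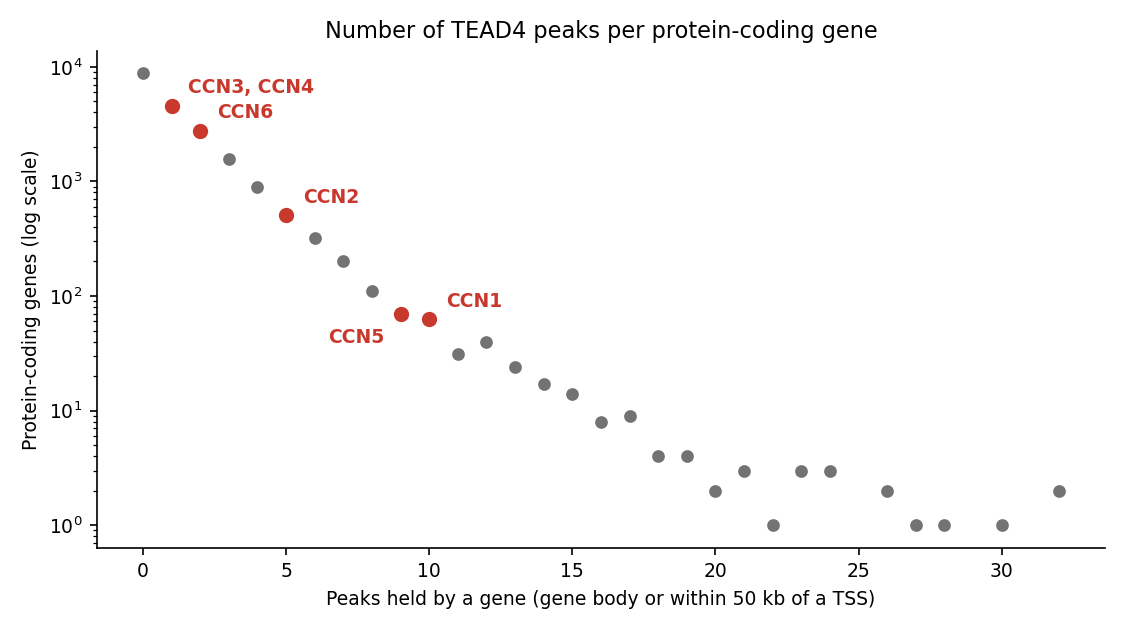
Number of protein-coding genes (y axis, log scale) by the number of TEAD4 peaks they hold (x axis), with grey points for all genes and red points at the counts of the CCN genes. CCN1 with 10 and CCN5 with 9 peaks sit far down the slope, whereas CCN3 and CCN4 share the count of 1 peak.

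Signal value, the peak caller's strength of a peak, split the family in the same way. CCN2, CCN1 and CCN5 each had 1 peak among the strongest 1% of the list, a group of 211 peaks with a signal value of at least 444.9. The share of protein-coding genes with such a peak was 1.48% (296 of 20007). The signal value was 617.19 for the strongest CCN2 peak (rank 54 of the list), 572.99 for the strongest CCN1 peak (rank 80) and 510.15 for the strongest CCN5 peak (rank 129). These 3 values were 9.07, 8.42 and 7.5 times the list's median of 68.05. The strongest peak of CCN4 had a signal value of 72.07, that of CCN3 52.87 and that of CCN6 39.07, close to or below the median.

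Signal summed over a gene's peaks ranked CCN1 above CCN2. The sum was 1637.9 at CCN1, a value reached by 0.28% (56) of protein-coding genes, 1227.1 at CCN5 and 847.1 at CCN2, and from 49.0 to 72.1 at CCN3, CCN4 and CCN6. Signal values above the list's median were not general in the family. Of its 28 peaks, 13 (46.4%, Wilson 95% interval 29.5 to 64.2) were above the list's median, and the family's own median was 58.62. The interval covers counting error over peaks only, and neighbouring peaks are not independent.

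**Figure D2:**
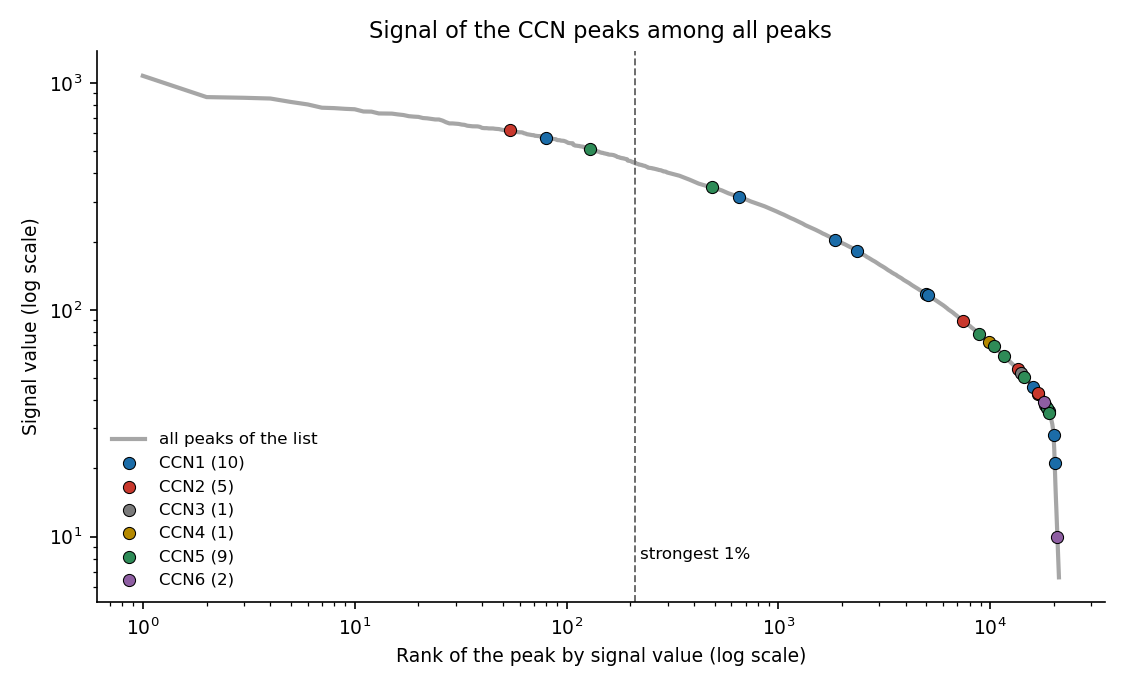
Signal value (y axis, log scale) against rank by signal value (x axis, log scale) for all peaks of the list (grey line) and the 28 CCN peaks (points coloured by gene). One peak each of CCN2, CCN1 and CCN5 lies left of the dashed line at the strongest 1%, and most other CCN peaks lie among the lower ranks.

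Position separated CCN1 and CCN2 from the other members. These 2 genes had a summit within 2.5 kb of a TSS, as did 16.7% of protein-coding genes (3333 of 20007), and CCN3, CCN4, CCN5 and CCN6 had none. The nearest summit lay 80 bp from a TSS at CCN1, 114 bp at CCN2, 5348 bp at CCN5, 22965 bp at CCN3, 26188 bp at CCN6 and 28814 bp at CCN4. Over the family, 10 summits were upstream of the gene, 2 inside it and 16 beyond its end. For 19 of the 28 peaks the nearest protein-coding TSS was that of the CCN gene itself. For 9 it was that of another gene, so those 9 cannot be given to the CCN gene by distance. The corresponding shares of positions and nearest TSSs over all protein-coding genes were not computed.

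**Figure D3:**
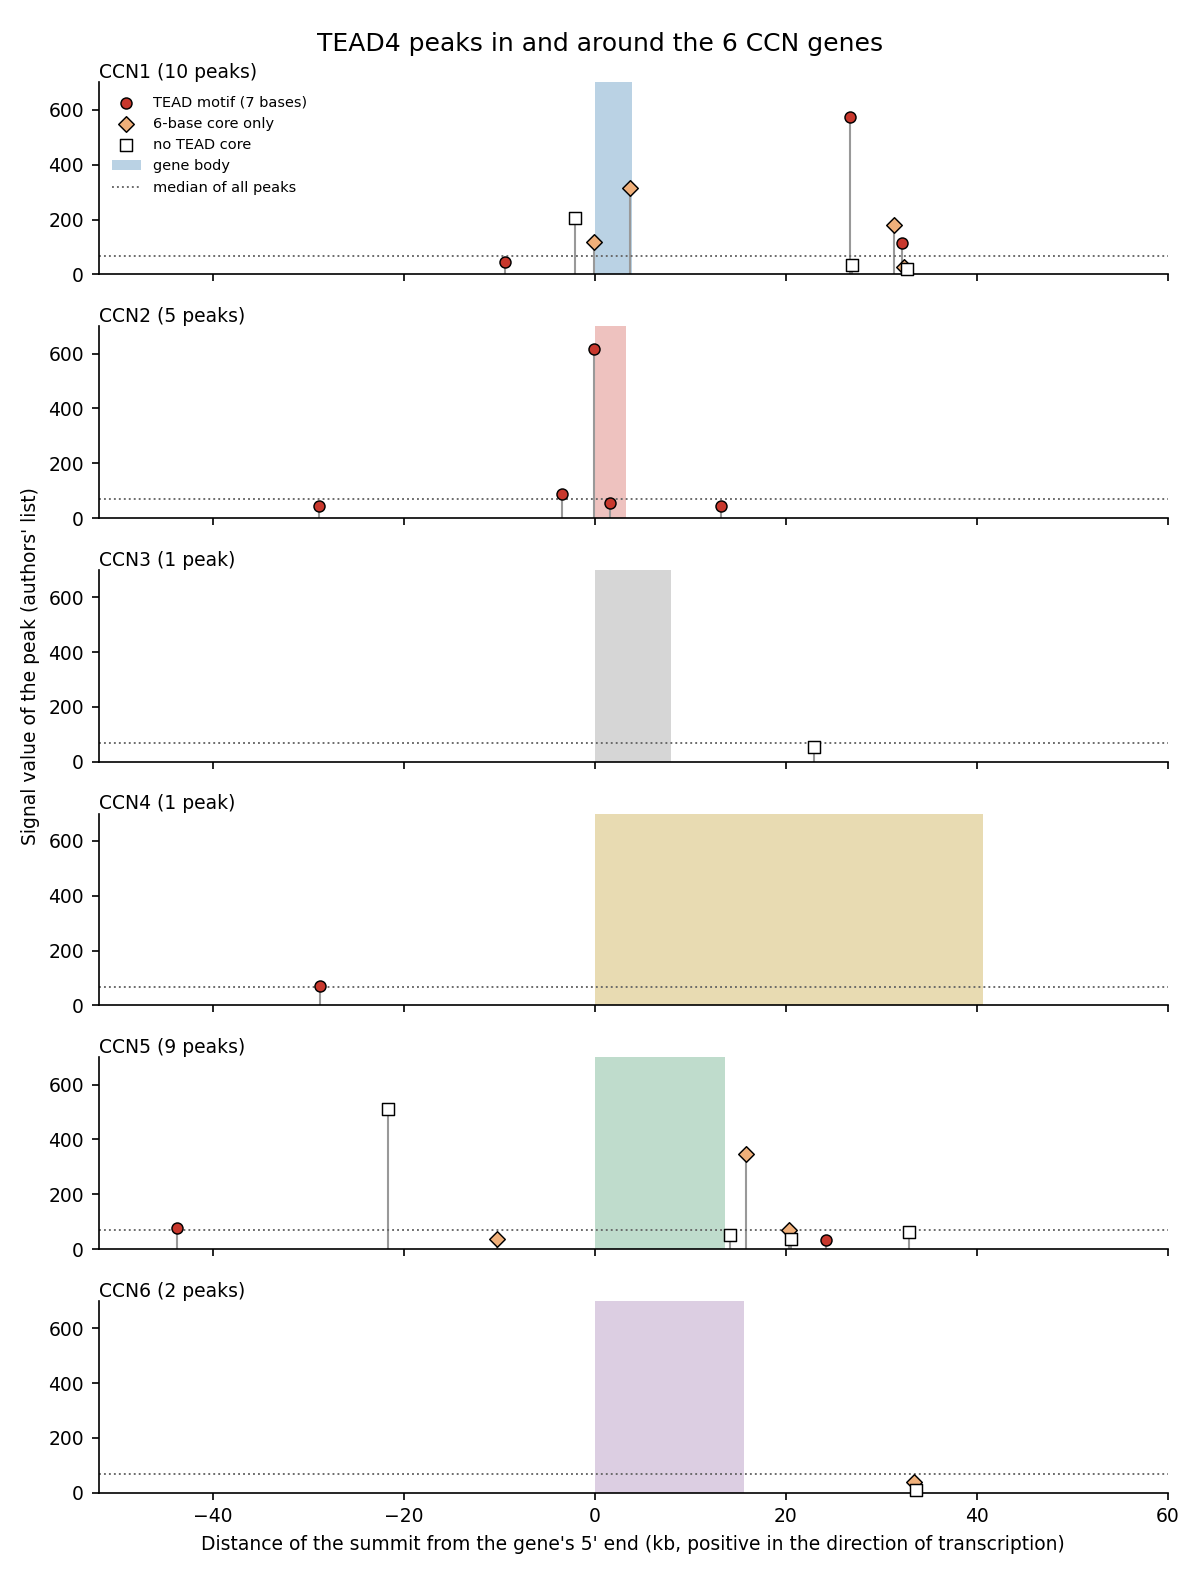
Signal value (y axis) of each TEAD4 peak against the distance of its summit from the 5′ end of the gene in kb (x axis), 1 panel per CCN gene, with the gene body shaded and the list's median as a dotted line. Filled circles mark a TEAD motif of 7 bases within 100 bp of the summit, diamonds its 6-base core only and open squares no core. The strongest CCN2 peak stands at the 5′ end, whereas the strongest CCN1 and CCN5 peaks stand 26699 bp downstream and 21679 bp upstream.

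CCN2 (ENSG00000118523.6, chr6:131948176-131951372, minus strand), the connective tissue growth factor gene, was the member whose strongest binding was at its own start. Its peak 3, with a signal value of 617.19, had its summit 114 bp upstream of the 5′ end. The other CCN2 peaks were weaker, at 42.76 (28870 bp upstream), 89.49 (3498 bp upstream), 54.7 (1569 bp downstream, in an intron of CCN2) and 42.97 (13243 bp downstream). One peak thus held most of the gene's summed signal. All 5 fell in the window of no other protein-coding gene, and all 5 lay in introns of the lncRNA LINC01013.

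The TEAD motif ACATTCC was found within 100 bp of the summit, on either strand, in all 5 CCN2 peaks, against 23.0% of all peaks of the list (4849 of 21113). In the stretch just before the gene shown above, the core occurred 3 times, all 3 in the orientation GGAATG on the strand of the gene, beginning 169, 104 and 95 bp upstream of the 5′ end. A TATAAAA element followed, closer to the start. At least 3 cores in the 250 bp upstream of the 5′ end were found in 0.095% of protein-coding genes (19 of 20007), and a summit lay inside those 250 bp in 3 of the 19. The 3 were CCN2, SYDE1 and ARPIN-AP3S2. The share of all protein-coding genes with a summit in those 250 bp was not computed. The pair of cores nearer the start stood in tandem with 3 bases between them. Such a tandem was present near the summit in 0.493% of all peaks (104 of 21113), whose median signal value was 136.14, against 67.83 for the peaks without it. The 104 include this CCN2 peak, in which the tandem was first seen. Peaks with cores spaced otherwise were not compared, so a link of the spacing with signal value was not tested.

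CCN2 peak 2 carried the sequence TGAGTCACATTCC, in which an AP-1 motif, the element bound by FOS and JUN proteins, shares 1 base with the TEAD motif. This joined element, with TGACTCA or TGAGTCA, was present in 0.0332% of all peaks (7 of 21113). In CCN2 peak 5 a pair of TEAD motifs lay on opposite strands, back to back, and in CCN2 peak 1 the motifs lay 11 and 92 bp from the summit. Peaks with at least 2 TEAD motifs made up 4 of the 28 CCN peaks and 1.81% of the list (382 of 21113).

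CCN1 (ENSG00000142871.18, chr1:85580761-85584589, plus strand), which encodes an immediate-early matricellular protein that supports cell adhesion, had the most peaks. Its promoter peak, peak 3, had a summit 80 bp upstream of the 5′ end and a signal value of 117.86, 1.73 times the list's median. Peak 2, 2150 bp upstream, had a signal value of 204.08, and peak 4, 3633 bp downstream of the 5′ end in an exon of a CCN1 transcript annotated as non-coding, had 314.56. The signal value at the CCN1 start was lower than at both neighbouring sites and lower than at the CCN2 start.

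The strongest CCN1 peak was distal. Peak 5, with a signal value of 572.99, had its summit 26699 bp downstream of the 5′ end in intergenic sequence, and opened a cluster of 6 peaks whose summits spanned 5936 bp. In that cluster peaks 7 and 8 had signal values of 181.51 and 116.32, and peaks 6, 9 and 10 had 35.68, 28.1 and 21.05. Peak 6 lay 212 bp from peak 5, peak 9 lay 206 bp from peak 8, and peak 10 lay 234 bp from peak 9, so these 3 weak summits stood beside stronger ones. Peaks 5 and 6 had the same interval, and the interval of peak 9 overlapped those of peaks 8 and 10. The 6 summits were thus not 6 separate regions. Peak 1, 9414 bp upstream in an intron of DDAH1, had a signal value of 45.77.

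DDAH1, an enzyme gene that breaks down methylated arginines, is the upstream neighbour of CCN1, and all 10 CCN1 peaks also fell in its window. The nearest protein-coding TSS was that of CCN1 for 8 of the 10 and that of DDAH1 for peaks 1 and 2. Peak 2 lay 248 bp upstream of a DDAH1 TSS, in an exon of the lncRNA ENSG00000272691.

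The TEAD motif was found in 3 of the 10 CCN1 peaks, peaks 1, 5 and 8. Peak 5, the strongest, held 1 TEAD motif 39 bp from the summit, an AP-1 motif 53 bp from it and a RUNX motif (TGTGGTT). All were within the stretch searched. A RUNX motif was also near the summits of CCN1 peaks 2 and 7, and its share over the list was not computed. Peak 1, a weak peak, held 3 TEAD motifs, 2 of them back to back on opposite strands as shown above. The promoter peak had no full motif and 1 core. Peak 2, the third strongest, had neither the motif nor the core. It was the only CCN peak with a CArG box (CCWWWWWWGG, W being A or T), the element of serum response factor, which was found in 1.58% of all peaks (333 of 21113).

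CCN5 (ENSG00000064205.11, on chromosome 20, plus strand) encodes the member that lacks the C-terminal cystine knot domain of the other CCN proteins. It held 9 peaks, none within 2.5 kb of a TSS. Peak 2, 21679 bp upstream of the 5′ end in an intron of the lncRNA ENSG00000132832, had a signal value of 510.15. Peak 5, 15775 bp downstream of the 5′ end and beyond the gene's end, had 346.02 (rank 485). The other 7 were between 35.19 and 78.41, on either side of the median. The strong sites of CCN5 thus lay on both sides of the gene and none in it.

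The CCN5 window is shared with genes of other functions. Peaks 1 and 2 also fell in the window of ADA (adenosine deaminase), and peaks 3 to 9 in that of KCNK15, a potassium channel gene. The nearest protein-coding TSS was that of CCN5 for 4 of the 9 peaks, among them both strong ones. A TEAD motif was present in peaks 1 and 8, with signal values of 78.41 and 35.19. The strongest peak, peak 2, held an AP-1 motif 30 bp from the summit and no TEAD core, and peak 5 held a core only. The sequences of peak 2 (chr20:44693105-44693225) and peak 1 (chr20:44671015-44671115), both on the plus strand of hg38, are shown for that contrast, with capitals as above. Peak 1 held 2 TEAD motifs in the same orientation.
CCN5 peak 2: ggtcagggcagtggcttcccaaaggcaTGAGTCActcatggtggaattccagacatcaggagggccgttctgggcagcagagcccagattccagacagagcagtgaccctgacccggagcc
CCN5 peak 1: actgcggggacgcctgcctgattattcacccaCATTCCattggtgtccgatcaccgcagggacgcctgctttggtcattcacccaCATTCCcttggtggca

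CCN3, CCN4 and CCN6 made up the weakly bound group. CCN3, often described as a counterpart of CCN2 in fibrosis, held 1 peak of signal value 52.87, 22969 bp downstream of its 5′ end in an intron of the lncRNA ENSG00000253398, with neither the TEAD motif nor an AP-1 motif within 100 bp of the summit. An AP-1 motif lay 103 bp from it. CCN4, named after its induction by WNT1, held 1 peak of 72.07, 28814 bp upstream in intergenic sequence and also in the window of TG (thyroglobulin). That peak had a TEAD motif 6 bp from the summit. As strong a peak was held by 37.1% of all protein-coding genes for CCN4, 46.1% for CCN3 and 52.9% for CCN6.

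CCN6, whose loss causes a childhood skeletal dysplasia, held 2 peaks that were both at the starts of other genes. Peak 1 (signal value 39.07) lay 1 bp from a TSS of TUBE1, a tubulin gene, and peak 2 (9.97) lay 34 bp from a TSS of FAM229B. Both also fell in the window of LAMA4, a laminin gene. The summits were 205 bp apart, and peak 2 was the only CCN peak with a q-value above 0.05 (0.374). CCN6 was the only member for which none of its peaks had the CCN gene's TSS as the nearest protein-coding one.

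Over the family, 11 of 28 peaks held the TEAD motif (39.3%, Wilson 95% interval 23.6 to 57.6), beside 23.0% of the list, and 5 of the 11 were those of CCN2. The rest were 3 of the 10 CCN1 peaks, 2 of the 9 CCN5 peaks and the 1 CCN4 peak. The CCN3 and CCN6 peaks held none, so the family's share rested largely on CCN2. The core CATTCC was near 19 summits (67.9%, 49.3 to 82.1), beside 46.8% of the list (9880 of 21113). An AP-1 motif was near 4 summits (14.3%, 5.7 to 31.5), beside 25.4% of the list (5363 of 21113). The list's AP-1 share lay inside the family's interval. All these intervals cover counting error over peaks only, and neighbouring peaks are not independent. Peaks with the TEAD motif had a median signal value of 72.07 (n = 11, 35.19 to 617.19) and those without it 52.87 (n = 17, 9.97 to 510.15), ranges that overlapped almost entirely. The corresponding medians of the whole list were 82.22 and 64.57. A match of letters is a description and does not show which base TEAD4 contacts.

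**Figure D4:**
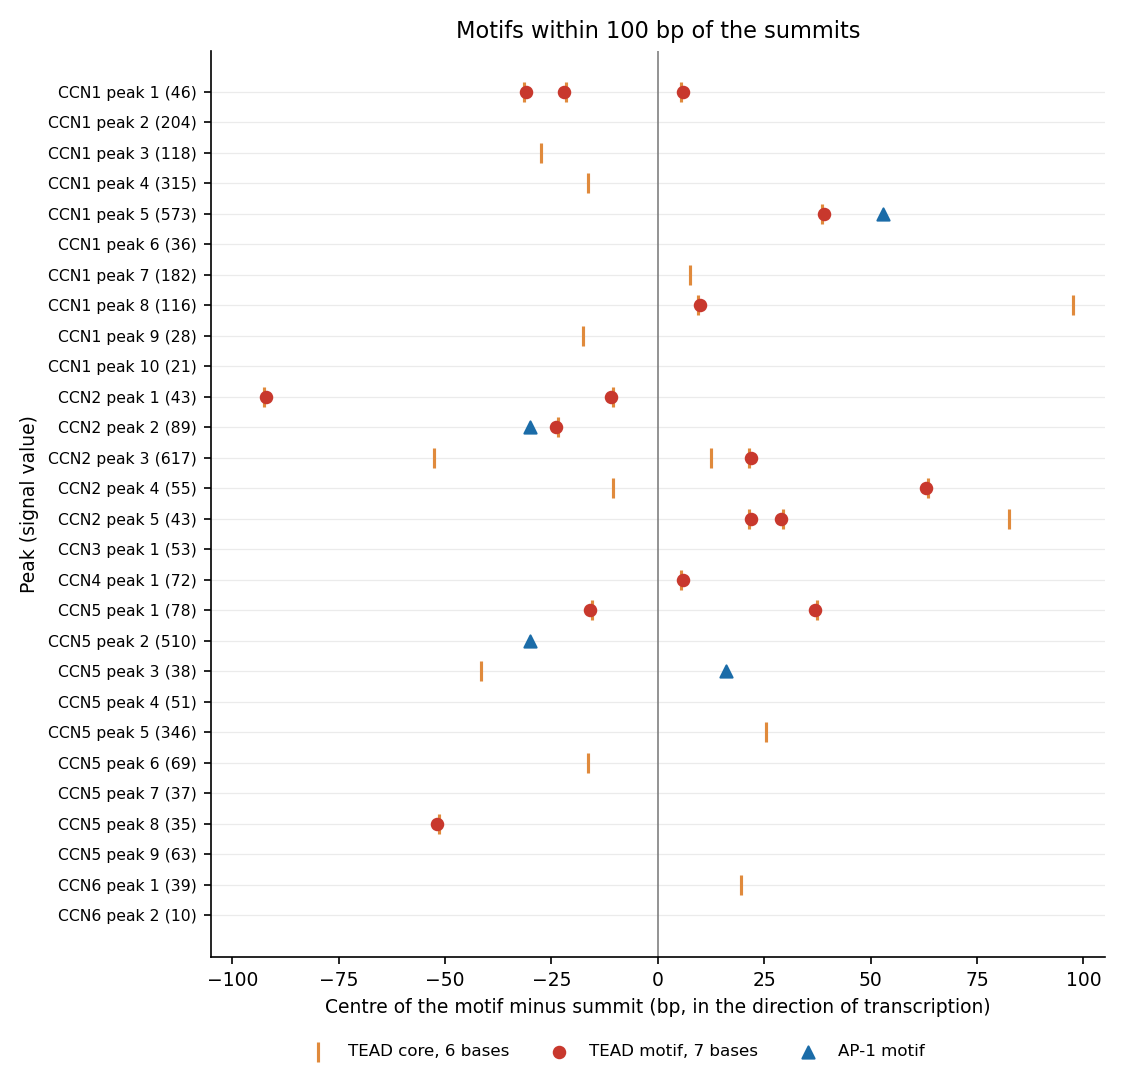
Position of TEAD cores (ticks), TEAD motifs of 7 bases (circles) and AP-1 motifs (triangles) relative to the summit in bp (x axis), for each of the 28 CCN peaks with its rounded signal value (y axis). Every CCN2 peak has a circle, whereas CCN5 peak 2, with a signal value of 510.15, has a triangle only.

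The 250 bp upstream of the 5′ ends were also compared between members. The core CATTCC was present there in CCN2 (3 times), CCN1 (once) and CCN6 (once) and not in CCN3, CCN4 and CCN5, against 11.0% of protein-coding genes (2203 of 20007). TATAAAA on the strand of the gene was present in CCN1, CCN2 and CCN3, beside 2.52% of protein-coding genes (504 of 20007). CCN1 and CCN2, the members with a core and this element, were also those with a promoter peak. The share of all protein-coding genes with both was not computed, and a link of these sequences with binding was not tested. Of the 19 protein-coding genes with at least 3 cores there, 6 had a peak within 2.5 kb of a TSS, CCN2 among them. The share of all protein-coding genes with such a peak was 16.7% (3333 of 20007). CCN6 had a core and no peak within 2.5 kb.

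The genes of 12 receptors and co-receptors of CCN proteins were counted by the same rule. All 12 held a peak, beside 56.2% of protein-coding genes, although 11 of the 12 have windows longer than any CCN gene. Syndecan-4 (SDC4), a heparan sulfate proteoglycan co-receptor, held 10 peaks, with a highest signal value of 640.18 (rank 39). It was the only one of the 12 with a peak in the strongest 1%, beside 1.48% of protein-coding genes (296 of 20007). Among integrin subunits, ITGB1 held 9 peaks (highest 175.21), ITGB5 held 7 (343.36), ITGA5 held 4 (77.92) and ITGB3 held 4 (422.86). ITGA6, ITGB2, ITGAV and ITGAM held between 1 and 3. The LDL receptor family members LRP1 and LRP6 and the receptor NOTCH1 held 2 each, and the highest LRP6 peak had a signal value of 431.85 (rank 231). A summit within 2.5 kb of a TSS was present in 7 of the 12, beside 16.7% of protein-coding genes (3333 of 20007). Every annotated TSS of a gene counted here, and genes with a similar number of TSSs were not compared.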

How the data were processed

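LX-2 cells treated with DMSO gave 3 TEAD4 immunoprecipitated replicates and 2 input samples. Mapping to hg38 was done by the authors with Chromap, followed by the ENCODE irreproducible discovery rate (IDR) pipeline, keeping replicates 1 and 3. The peak caller is not given in the sources used here. The deposited columns used are a score (scaled IDR), a signal value, a −log10 q-value and a summit offset, each made by the authors for both replicates together. The list carries no header, so these meanings rest on its layout and values. Depth per sample is unknown, and 0 columns of values per sample were used.

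Peaks were assigned by summit (gene body or 50 kb from a TSS, GENCODE release 44). Members were all reported, and peaks were numbered along the direction of transcription. Both strands of the 100 bp to either side of each summit were searched for TEAD ACATTCC and its core CATTCC, AP-1 TGACTCA or TGAGTCA, RUNX TGTGGTT and the CArG box. The 250 bp upstream of the 5′ end were scanned for CATTCC and TATAAAA. Most shares stand beside the same share over all peaks or protein-coding genes. Positions relative to the gene, nearest TSSs, summits in the 250 bp upstream and the RUNX motif have no such share. Wilson 95% intervals are given for the family's shares with a TEAD motif, its core, an AP-1 motif or a signal value above the median. No test was run. A set test was left out since the members were listed with results of these data known, and single values of replicates were not at hand. The members, the receptor list and the motifs were chosen with earlier results of these data known, and the strongest 1%, the CArG box, the upstream scan, the tandem and joined motifs and the sequences shown were chosen after the values were seen. The code was tested on simulated data. Python 3.11.15, numpy 2.4.6, pandas 2.3.3, scipy 1.17.1, matplotlib 3.10.9 and pysam 0.24.0 were used.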

Additional observations from a re-analysis of the deposited data

How the results depend on the processing

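Of 56 alternative values of the family's results, 52 stayed within 1.5 times the main count or inside the main share's Wilson interval. These limits are wide for such small counts. A fall from 6 to 4 CCN genes with a peak, at 25 kb or above the list's median, counted as within them. The family held 17 peaks with a distance of 25 kb from a TSS and 13 when only peaks above the list's median signal value were kept, both by construction, against 28. The share of CCN peaks with a TEAD motif was 67.9% for CATTCC and 21.4% for ACATTCCA, against 39.3%. Keeping only peaks with the nearest protein-coding TSS at a CCN gene left 19 peaks and 5 genes with a peak (CCN6 had none). Merging overlapping peaks left 23. With 25 kb, CCN4 and CCN6 had 0 peaks and CCN1 had 4. With only the highest IDR score, CCN5 had 5 and CCN6 0. Above the median, CCN1 had 6, CCN5 4, CCN2 2, and CCN3 and CCN6 0. The 3 genes with a peak in the strongest 1% became 2 with the strongest 0.5% and stayed 3 with 5% or with nearest TSSs only, all alternatives chosen after seeing the data. No paired analysis was possible because values of replicates were combined into 1 list and no result comes from a test, and for the same reason no replicate could be left out in turn. Depth limits what was called in regions without a peak, so the absence of a peak is not absence of binding.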

Other observations

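Between 50 and 100 kb from a TSS lay 3 further peaks. At CCN1, 1 summit 85033 bp upstream of the 5′ end had a signal value of 275.98 and 1 TEAD motif, and 1 summit 53380 bp upstream had 71.1 and 2 TEAD motifs, and DDAH1 was the nearest protein-coding gene to both. At CCN6, 1 summit 80492 bp upstream had a signal value of 58.99 and no TEAD motif, and it was the only further peak whose nearest protein-coding TSS was that of the CCN gene. CCN2, CCN3, CCN4 and CCN5 gained no peak at that distance.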
